A study of Mus musculus with 64 samples.

Results

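Lipid handling genes are described here in single cells sorted from mouse teeth. The set holds 10 of the 24530 gene symbols in the count table: Apoe, Lpl, Fabp5, Abca1, Abcg1, Plin2, Lipa, Npc2, Cd36 and Fabp4. They were chosen by name, with earlier results of the same cells known, and all 10 had reads in at least 1 of the 64 cells. Their levels were followed in 2 tissues and in 2 cell classes, together with how often they were read in the same macrophage.

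The 64 cells, 32 from molars and 32 from incisors, came from XLacZ4 mice, a strain that carries a lacZ reporter, and all of them had been sorted as positive for FDG, a substrate that turns fluorescent when beta-galactosidase cuts it. Polyadenylated RNA of each cell was read with Smart-Seq2, which covers whole transcripts and does not tag molecules, so counts are reads. All cells of both tissues carry the label pericytes, and the labels give no treatment, age or sex and name 0 animals. Each tissue was therefore taken as 1 sample, no test was made, and every difference below describes these cells with no replicate check.

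Cells were classed by 2 genes. A cell with at least 500 CPM (reads of a gene scaled to a total of 10 to the power of 6 reads in the cell) of Rgs5, a pericyte gene, and 0 reads of Csf1r, a receptor that macrophages need to survive, was called mural-like, a name that covers pericytes and vascular smooth muscle cells. A cell with at least 1 Csf1r read and less than 500 CPM of Rgs5 was called a macrophage. The classes held 47 macrophages (22 molar, 25 incisor) and 15 mural-like cells (9 molar, 6 incisor). The mural-like cell nearest to the threshold was incisor cell 2 with 570.4 CPM of Rgs5, far below the next lowest at 14729 CPM, and the macrophage nearest to it was incisor cell 25 with 167 CPM. Incisor cell 13 had both markers (2301 CPM of Rgs5 and 839 Csf1r reads) and molar cell 10 had neither, so both stand outside the classes.

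The label pericytes went against the markers in most cells. All 11 macrophage marker genes checked were read in the macrophages, with a mean detection of 88.6%, and their summed level per cell ran from 2531 to 45749.5 CPM. In the mural-like cells mean detection of that list was 3.64%, with a summed level of 0 to 261 CPM. C1qa, C1qb, C1qc, Mrc1, Adgre1 and Lyz2 had no read there, nor did Csf1r, by the class rule. Of the 10 mural markers, mean detection was 78.7% in mural-like cells and 8.30% in macrophages, where Pdgfrb, Cspg4 and Kcnj8 had no read. The lists include Csf1r and Rgs5, whose detection followed wholly or in part from the class rule, so these genes are no independent check. Macrophages held 514492 to 2933124 counts (median 1428700) and mural-like cells 1230795 to 3171734 (median 2767910), so shares of cells with a read were also taken after thinning every cell to 1040000 reads, which kept 21 molar and 19 incisor macrophages and all 15 mural-like cells. Adipocytes are the cells best known for several of these genes, and Adipoq, Plin1, Cfd, Lep, Retn and Cidec had no read in either class; Lipe, the seventh marker checked, was read in 2 of 47 macrophages (2.85 and 224 CPM) and in no mural-like cell.

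Macrophages take up lipid from lipoproteins, dying cells and debris, and must store it or send it back out. Lipoprotein lipase (Lpl) frees fatty acids outside the cell, Cd36 takes them in, and the fatty acid binding proteins Fabp4 and Fabp5 carry them in the cytosol. Lysosomal acid lipase (Lipa) and Npc2 release cholesterol from swallowed lipid, Plin2 coats the droplets where lipid is stored, and the transporters Abca1 and Abcg1 export cholesterol to apolipoprotein E (Apoe) and high-density lipoprotein. Abca1, Abcg1 and Apoe are known targets of the liver X receptors, which sense oxidised cholesterol, and in the wall of small vessels Lpl is known as an enzyme made by parenchymal cells and held on the endothelium.

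The 250 bases before the start site are shown for the 3 members with reads in at least 41 of the 47 macrophages, as RefSeq gives them for GRCm38.p6; of the 10 members, 6 had an entry. Capitals mark letters found by searching both strands for 3 motifs. The first is the E-box CACGTG, bound by many basic helix-loop-helix factors. Next comes the core promoter element known as the TATA box, searched as TATAAA. The last, AGGTCA, is a half-site of the kind that nuclear receptors bind.
Apoe, chr7:19699189-19699438, minus strand: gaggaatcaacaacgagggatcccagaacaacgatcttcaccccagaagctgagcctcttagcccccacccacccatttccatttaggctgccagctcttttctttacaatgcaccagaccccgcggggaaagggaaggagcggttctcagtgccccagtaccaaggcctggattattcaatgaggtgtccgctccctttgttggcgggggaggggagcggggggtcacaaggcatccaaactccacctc
Abca1, chr4:53159896-53160145, minus strand: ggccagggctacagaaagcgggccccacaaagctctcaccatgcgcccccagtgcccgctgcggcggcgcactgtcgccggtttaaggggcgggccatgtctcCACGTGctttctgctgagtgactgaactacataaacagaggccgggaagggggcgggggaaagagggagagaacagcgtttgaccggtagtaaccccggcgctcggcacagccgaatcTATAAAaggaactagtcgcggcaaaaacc
Plin2, chr4:86670060-86670309, minus strand: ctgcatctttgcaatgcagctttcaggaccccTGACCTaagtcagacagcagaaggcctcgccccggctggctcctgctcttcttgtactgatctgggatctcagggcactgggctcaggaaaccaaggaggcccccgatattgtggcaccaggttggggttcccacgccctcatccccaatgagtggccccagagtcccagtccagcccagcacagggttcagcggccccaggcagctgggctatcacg
The Abca1 window held CACGTG at bases -147 to -142 counted from the start site and TATAAA at -29 to -24, and the Plin2 window held AGGTCA at -218 to -213 on the opposite strand; no matches overlapped. Of 32851 windows of this length, CACGTG stood in 6.02%, TATAAA in 12.4% and AGGTCA in 14.02%. None of the 3 motifs was in the Apoe window. A match is a description of letters and not a site.

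Between the classes, 6 of the 10 members were at least 2-fold higher in macrophages and 3 were at least 2-fold higher in mural-like cells. Over the 9798 genes measured (those with 5 CPM or more as the mean of the classes), 35% were at least 2-fold higher in macrophages and 35.7% at least 2-fold higher in mural-like cells. The genes for cholesterol export, storage and uptake (Apoe, Abca1, Abcg1, Plin2, Npc2, Cd36) were those higher in macrophages, and Lpl, Fabp5 and Fabp4 were those higher in mural-like cells. The median log2 ratio of macrophage over mural-like was 2.47 over the members and -0.07 over all measured genes, on log2(CPM + 1). Median-of-ratios scaling shifts all class ratios by 0.30 towards macrophages, and Lpl then falls short of 2-fold while Lipa passes it. Within the molar 6 of 9 measured members were at least 2-fold higher in macrophages and 2 in mural-like cells, against 41.9% and 36.1% of the genes, and within the incisor 7 and 2 of 10, against 40.3% and 36%. Leaving out molar cell 22 or incisor cell 28 brought the count for mural-like cells in that tissue to 1, since Fabp5 then fell short of 2-fold. By share of thinned cells, 7 members were at least 20 percentage points higher in macrophages (the 6 above and Lipa) and Lpl alone that much higher in mural-like cells, gaps reached by 17.2% and 13.4% of the genes.

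**Figure D1:**
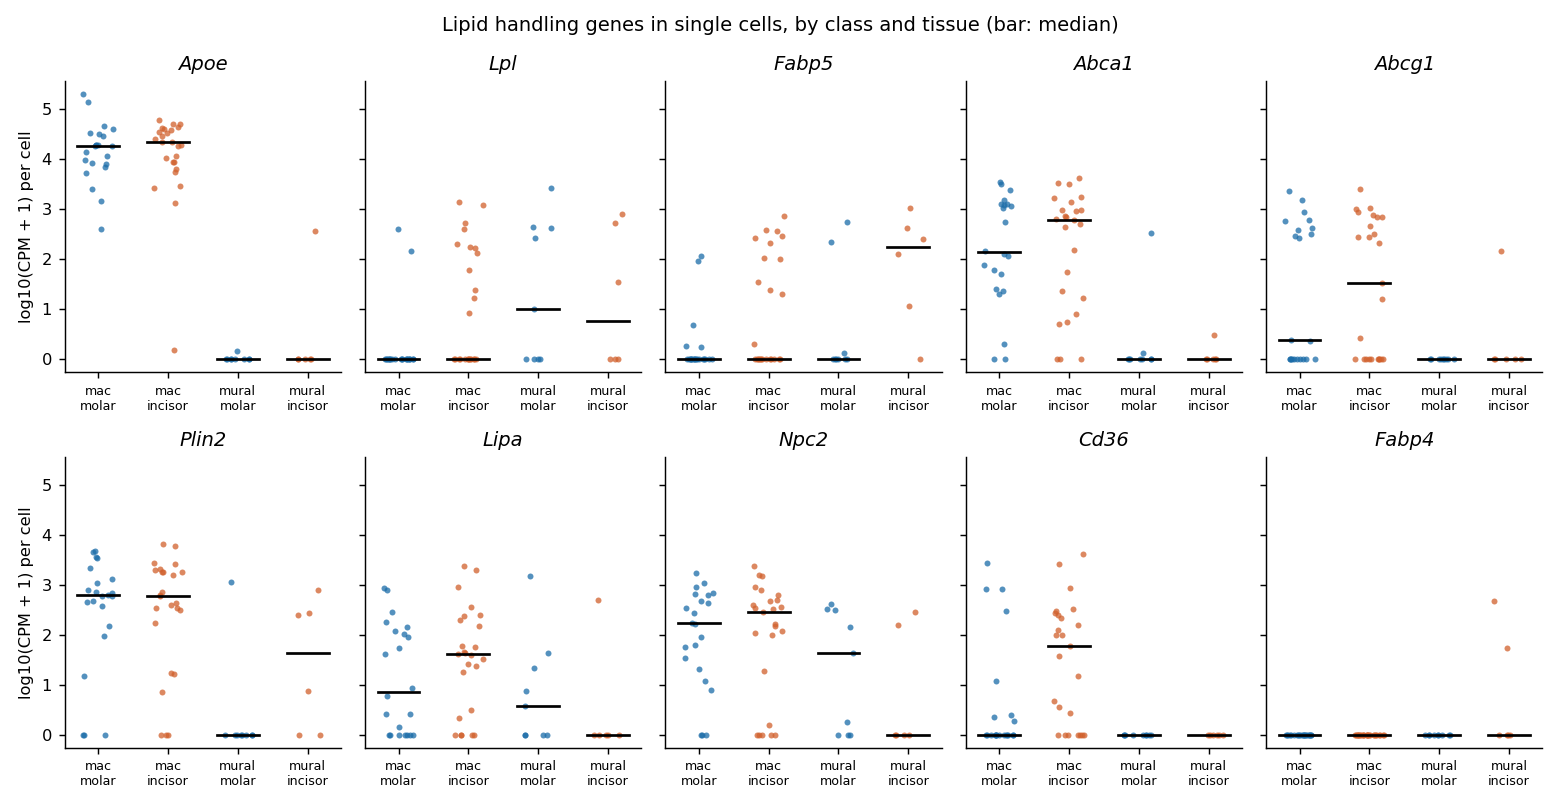
Level of each member in each cell, as log10(CPM + 1) on the vertical axis, for molar (blue) and incisor (orange) cells of the macrophage (mac) and mural-like (mural) classes; points are cells and black bars are medians. Apoe separates the classes in nearly every cell, Cd36 is at 0 in all 15 mural-like cells and Fabp4 at 0 in all 47 macrophages.

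Apoe (chr7:19696109-19699188, minus strand), the secreted apolipoprotein that carries cholesterol away from cells, was the most abundant member. It had reads in 47 of 47 macrophages, with levels from 0.487 to 195993 CPM and a median of 18705 CPM, and 46 of these cells were above 100 CPM. In mural-like cells it had reads in 2 of 15, with 357 CPM in incisor cell 32 and 0.462 CPM in molar cell 15. The cell levels of the classes overlapped only through the lowest macrophage, an incisor cell with 0.487 CPM. Summed over cells, Apoe stood at 32064 CPM in macrophages and 28.7 CPM in mural-like cells, a ratio of 1117 (95% interval 1053 to 1186). That mural-like level is 1 cell: without incisor cell 32 it was 0.0281 CPM.

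The cholesterol exporters followed the same direction. Abca1 (chr4:53030787-53159895, minus strand), which loads cholesterol onto lipid-poor apolipoproteins, had reads in 42 of 47 macrophages (median 501 CPM, highest 4064 CPM, lowest 0) and in 3 of 15 mural-like cells. Its summed level was 812 CPM against 25.1 CPM, a 32.4-fold difference (30.4 to 34.5). Molar cell 17, with 332 CPM, held 99.3% of the mural-like reads, and the other mural-like cells with reads had 1.93 and 0.315 CPM. Without molar cell 17 the mural-like level was 0.195 CPM and the ratio 4152.

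Abcg1 (chr17:31057675-31117988, plus strand), which passes cholesterol to mature high-density lipoprotein, had reads in 27 of 47 macrophages (median 14.6 CPM, highest 2484 CPM). Among mural-like cells only incisor cell 24 had any, at 145 CPM. The summed levels were 359 CPM and 7.75 CPM, a 46.4-fold difference (41.4 to 52.2). Without incisor cell 24 no mural-like cell had an Abcg1 read. Abcg1 was thus a gene of some macrophages, above 100 CPM in 22 of them and unread in 20, while Abca1 was unread in 5.

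Plin2 (chr4:86648386-86670060, minus strand), the coat protein of lipid droplets, had reads in 41 of 47 macrophages, with a median of 600 CPM and a highest level of 6557 CPM. It had reads in 5 of 15 mural-like cells, at 1101 CPM in molar cell 23, 773 CPM in incisor cell 28, 265 CPM in incisor cell 10, 248 CPM in incisor cell 32 and 6.27 CPM in incisor cell 24. The classes overlapped in those cells. The ratio of summed levels, 1415 CPM over 169.9 CPM, was 8.33 (8.13 to 8.54), or 13.4 without molar cell 23. Of the 50-base stretches of Plin2 exons, 2.57% also occur in the predicted gene Gm12551, so a small part of its reads could be split between them.

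Of the lysosomal members, Npc2 (chr12:84754562-84773152, minus strand), which hands cholesterol to the lysosomal membrane, had reads in 39 of 47 macrophages (median 173 CPM, highest 2379 CPM) and 8 of 15 mural-like cells (median 0.749 CPM, highest 398 CPM). Its summed level was 458 CPM in macrophages and 124 CPM in mural-like cells, a 3.71-fold difference (3.59 to 3.82). Lipa (chr19:34492318-34527474, minus strand), the acid lipase that splits cholesteryl esters, had reads in 35 of 47 macrophages (median 38.0 CPM, highest 2305 CPM) and 6 of 15 mural-like cells (median 0, highest 1514 CPM). Its summed levels, 217 and 118 CPM, differed 1.84-fold (1.78 to 1.90). Molar cell 4 held 62.6% of the mural-like Lipa reads, and without it the ratio was 4.67.

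Cd36 (chr5:17781690-17888801, minus strand), the fatty acid and scavenger receptor, had reads in 26 of 47 macrophages, from 0 to 4046 CPM with a median of 1.43 CPM. No mural-like cell had a read (0 of 15; a limit of 3 cells allows a share of up to 20%, and the exact interval reaches 21.8%). Its summed level in macrophages, 258 CPM, was at least 3324-fold higher than the limit that 3 counts over the mural-like cells would set. Molar cell 3 held 26.04% of the macrophage reads.

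Lpl, Fabp5 and Fabp4 went the other way. Lpl (chr8:68880491-68907448, plus strand), the secreted triglyceride lipase, was read in 8 of the 15 mural-like cells, from 0 to 2579 CPM with a median of 8.97 CPM, and in 14 of 47 macrophages, from 0 to 1368 CPM with a median of 0. The ranges overlapped almost wholly. The summed level was 306 CPM in mural-like cells and 126 CPM in macrophages, 2.42-fold higher in the former (2.35 to 2.48). Molar cell 4 held 41.1% of the mural-like reads and without it the difference was 1.496-fold, while without incisor cell 1, the macrophage with the most Lpl reads, it was 3.68-fold. In the molar Lpl stood at 337 CPM in mural-like cells and 36.02 CPM in macrophages (9.37-fold), a ratio of 3.98 without cell 4 and 42.5 without macrophage cell 30. In the incisor it stood at 255 and 208 CPM (1.23-fold), and single cells set the order: without mural-like cell 22 macrophages were 1.54-fold higher, and without macrophage cell 1 mural-like cells were 1.99-fold higher.

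Fabp5 (chr3:10012548-10016607, plus strand), the fatty acid binding protein of epidermis and macrophages, had reads in 8 of 15 mural-like cells (median 0.320 CPM, highest 1055 CPM) and 17 of 47 macrophages (median 0, highest 706 CPM). Its summed level was 3.33-fold higher in mural-like cells, at 199.6 against 59.99 CPM (interval of the ratio 3.21 to 3.45), and 2.13-fold higher without incisor cell 28. The same direction was seen in the molar, 95.9 against 14.3 CPM, and in the incisor, 363 against 101 CPM. The molar gap was 1.798-fold without mural-like cell 22 and 17.9-fold without macrophage cell 8, and the incisor gap was 1.89-fold without mural-like cell 28. Fabp5 has processed copies in the genome: 5.48% of the 50-base stretches of its exons also occur in Gm6166, Gm14328, Fabp5l2 or Gm13998, and how such reads were counted is not given in the sources used here.

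Fabp4 (chr3:10204088-10208576, minus strand), the fatty acid binding protein of adipocytes, capillary endothelium and some macrophages, had no read in any of the 47 macrophages; a limit of 3 cells allows a share of up to 6.38%, and the exact interval reaches 7.55%. It was read in 3 of the 64 cells, all from the incisor: 461 CPM in mural-like cell 22, 52.4 CPM in mural-like cell 28, and 84.2 CPM in cell 13, the cell with both class markers. These cells ranked 5, 2 and 1 among all 64 for Fabp5, with 416, 1055 and 1251 CPM, and all had Lpl reads (771, 514 and 66.6 CPM). In cell 13 Cd36 was also high, at 1403 CPM, while it was unread in the other Fabp4 cells. Over the class, the mural-like level of 38.0 CPM was at least 947-fold higher than the macrophage limit, and it was 4.38 CPM without incisor cell 22. None of the 7 adipocyte markers had a read in any mural-like cell or in cell 13, while 3 of the 8 endothelial markers were read in mural-like cells, 1 in each of 3 cells, with a summed level per cell of 0 to 1063 CPM. These were Flt1 in incisor cell 22, at 2.81 CPM, Tie1 in molar cell 4, at 1063 CPM, and Emcn in molar cell 31, at 24.2 CPM. Pecam1, Cdh5, Kdr, Tek and Cldn5 had no read in the class, and none of the 8 was read in incisor cells 13 or 28. Cells 22, 4 and 31 also carry Lpl reads, and the part of endothelial RNA in these levels was not tested.

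Levels of different genes can be compared only per length, here per kilobase of the longest protein-coding transcript. On that scale the order in macrophages was Apoe (22773 CPM per kilobase), Plin2 (749.7), Npc2 (139), Abca1 (79.1), Cd36 (75.8), Lipa (73.0), Abcg1 (61.6), Fabp5 (60.8) and Lpl (30.7), with Fabp4 at 0. In mural-like cells Fabp5 led (202 CPM per kilobase), then Plin2 (90.0), Lpl (74.3), Fabp4 (42.4), Lipa (39.7), Npc2 (37.5), Apoe (20.4), Abca1 (2.44) and Abcg1 (1.33), with Cd36 at 0. The cell-to-cell ranges of neighbours in both orders overlapped, so only the lead of Apoe in macrophages stands clear of them, and that lead has exceptions in its lowest cells. By summed level Apoe led in macrophages with Fabp5 near the end, and Fabp5 led in mural-like cells with Apoe near the end. The lead of Fabp5 rested on few cells: incisor cell 28 held 40.9% of its mural-like reads, and its median there was 0.320 CPM.

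**Figure D2:**
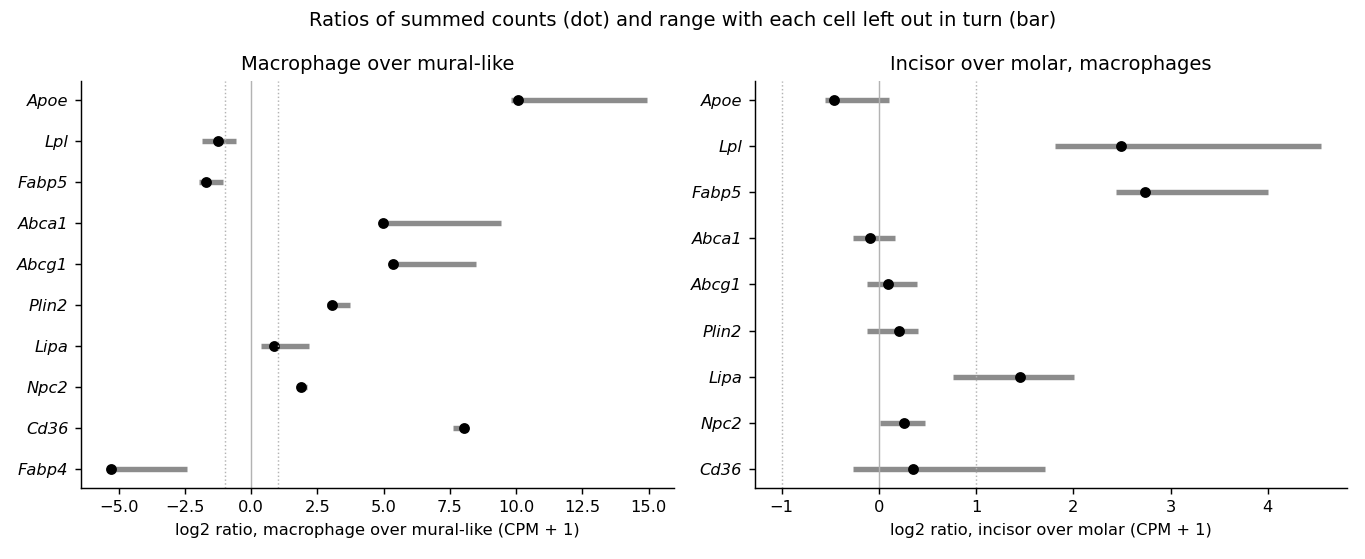
Log2 ratio of summed levels on the horizontal axis, with the members on the vertical axis: macrophage over mural-like cells on the left and incisor over molar macrophages on the right; dots use all cells, grey bars span the values with each cell left out in turn, and dotted lines mark 2-fold. On the left Lpl, Fabp5 and Fabp4 lie below 0; on the right only Lpl and Fabp5 stay beyond 2-fold whichever cell is left out.

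Within macrophages, the members split by tissue into a steady group and a group that was higher in the incisor. Lpl, Fabp5 and Lipa were at least 2-fold higher in incisor macrophages and no member was at least 2-fold higher in molar ones. Over the 8668 genes measured in this comparison 31.5% were at least 2-fold higher in the incisor and 25.2% in the molar, so 3 of 9 measured members is a share near the background and is not a result about the set. The median log2 ratio was 0.26 over the members and 0.12 over all measured genes. Fabp4, with no read in any macrophage, could not be compared.

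Lpl was read in 2 of 22 molar macrophages, at 401 CPM in cell 30 and 142 CPM in cell 5. It was read in 12 of 25 incisor macrophages, from 7.30 to 1368 CPM with a median of 169 CPM among the cells with reads; over all 25 the median was 0. The cells with reads overlapped in level between tissues, and the difference lay in how many there were. The summed level was 36.0 CPM in the molar and 208 CPM in the incisor, a ratio of 5.76 (5.43 to 6.12). It was 26.1 without molar cell 30 and 3.57 without incisor cell 1.

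At equal depth, Lpl was read in 2 of 21 molar macrophages (9.52%, exact 95% interval 1.17 to 30.4%) and 11 of 19 incisor macrophages (57.9%, 33.5 to 79.7%), and these intervals did not overlap. Among mural-like cells the shares were 5 of 9 in the molar and 3 of 6 in the incisor. Molar macrophages were thus the group with the fewest Lpl cells. These intervals cover counting error only and treat cells as independent, which cells of the same sample may not be.

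Fabp5 had the other large gap. It was read in 5 of 22 molar macrophages, at 114 and 90.6 CPM in cells 8 and 5 and below 4 CPM in cells 9, 12 and 21, and in 12 of 25 incisor macrophages, where the highest cell had 706 CPM and the median cell with reads 153 CPM. The summed levels of 14.3 and 101 CPM gave a ratio of 7.04 (6.42 to 7.74), or 18.8 without molar cell 8. At equal depth it was read in 4 of 21 molar (19.05%) and 11 of 19 incisor macrophages (57.9%), with intervals of 5.45 to 41.9% and 33.5 to 79.7% that overlapped.

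Cd36 was read in 8 of 22 molar macrophages (highest 2740 CPM, median 0) and 18 of 25 incisor macrophages (highest 4046 CPM, median 57.0 CPM). After thinning the shares were 8 of 21 (38.1%, interval 18.1 to 61.6%) and 14 of 19 (73.7%, 48.8 to 90.9%), and these intervals overlapped. The summed levels were 224 against 287 CPM (ratio 1.28, 1.24 to 1.32), and molar cell 3 alone held 63.2% of the molar reads. Leaving out that cell gave a ratio of 3.30 and leaving out incisor cell 29 one of 0.832, so the sum gave no steady direction. Lpl, Fabp5 and Cd36 were the 3 members whose share of thinned macrophages was at least 20 percentage points higher in the incisor, a gap reached by 6.82% of the measured genes. No member had such a gap towards the molar, against 4.48% of the genes.

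**Figure D3:**
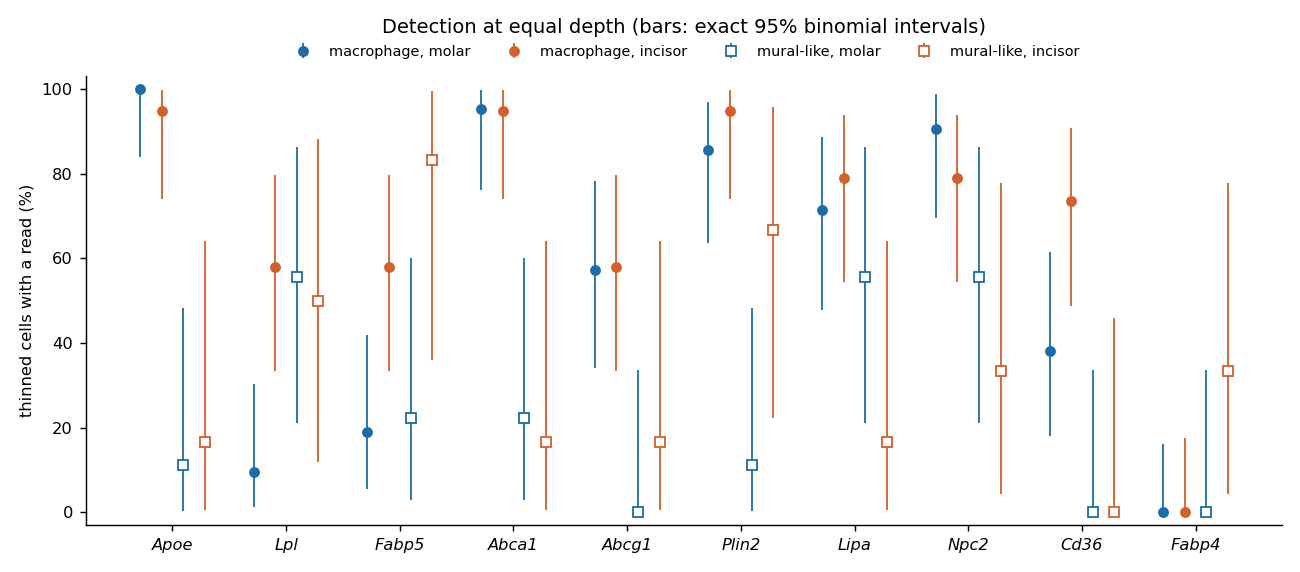
Share of cells with a read of each member after thinning every cell to 1040000 reads, in percent, for macrophages (filled circles: 21 molar, 19 incisor) and mural-like cells (open squares: 9 molar, 6 incisor); bars are exact 95% binomial intervals. The shares of molar and incisor macrophages differ most for Lpl, Fabp5 and Cd36, and only for Lpl do their intervals not overlap.

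Lipa was read in a like share of macrophages in both tissues, 15 of 22 in the molar and 20 of 25 in the incisor, with medians of 6.08 and 40.6 CPM. Its summed level was 113 CPM in the molar and 309.9 CPM in the incisor, a ratio of 2.74 (2.65 to 2.84). Incisor cell 4 held 42.1% of the incisor reads and the ratio was 1.70 without it, below 2-fold.

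The other macrophage members were close between tissues. Apoe had medians of 18142 CPM in the molar and 21681 CPM in the incisor, with cell levels from 402 to 195993 CPM and from 0.487 to 60866 CPM. Its summed level was lower in the incisor, at 27195 against 37494 CPM (ratio 0.725), but molar cell 30 alone held 37.3% of the molar reads and without it the log2 ratio was 0.10. Abca1 stood at 837 CPM in the molar and 788 CPM in the incisor, Abcg1 at 347 and 370.4 CPM, Plin2 at 1309 and 1511 CPM, and Npc2 at 416 and 497 CPM. For these genes the cell levels of the tissues overlapped throughout, and the ratio of each changed by less than 1.5-fold whichever cell was left out.

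Over all 64 cells, with the classes mixed, 3 of 10 members were at least 2-fold higher in the incisor (Fabp5, Lipa and Fabp4) against 28.1% of the 9934 genes measured, and 0 in the molar against 22.8%. Fabp5 stood at 45.5 CPM in the molar and 201 CPM in the incisor, a ratio of 4.41 (4.23 to 4.60), and 11.2 without molar cell 22. Lipa stood at 116 and 246 CPM, a ratio of 2.13 that was 1.40 without incisor cell 4 and 3.46 without molar cell 4. Median-of-ratios scaling shifts these ratios by 0.13 on the log2 scale, and Lipa then falls short of 2-fold. Lpl differed only 1.43-fold over all cells, 152 against 217 CPM, where 9 molar and 6 incisor cells were mural-like; without molar cell 4 the ratio was 2.92. By share of thinned cells Lpl, Fabp5, Plin2 and Cd36 were at least 20 percentage points higher in the incisor, as were 5.25% of the genes, and no member in the molar, against 1.14%.

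The 15 mural-like cells were few, and most members rested on 1 or 2 of them. Fabp5 was read in 5 of 6 incisor cells, at 1055, 416, 245, 122 and 10.6 CPM in cells 28, 22, 32, 10 and 2, and in 3 of 9 molar cells, at 549.9 (cell 22), 220.4 (cell 13) and 0.320 CPM (cell 1). The incisor level was 363 CPM and the molar level 95.9 CPM, a ratio of 3.79 (3.61 to 3.98), which was 14.1 without molar cell 22 and 1.99 without incisor cell 28. Lpl was read in molar cells 4, 17, 31, 13 and 1 at 2579, 432, 419, 266 and 8.97 CPM, and in incisor cells 22, 28 and 32 at 771, 514 and 32.8 CPM. Its levels of 337 and 255 CPM changed order with single cells: the incisor was 1.78-fold higher without molar cell 4 and the molar 2.50-fold higher without incisor cell 22.

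Of the 9 members measured in mural-like cells, 5 were at least 2-fold higher in the incisor (Apoe, Fabp5, Abcg1, Plin2 and Fabp4) against 37.3% of the 7923 genes measured, and Abca1 was higher in the molar against 31.4%. Fabp5 fell just short of 2-fold without incisor cell 28, at a ratio of 1.99, and each of the other called differences came from very few cells. Apoe in the incisor was cell 32 (the level was 0 without it), Abcg1 was cell 24 (0 without it), Abca1 in the molar was cell 17 (0.0481 CPM without it), and 89.3% of the Fabp4 reads were in cell 22 (97.9 CPM with it and 12.9 CPM without). Plin2 was read in 4 of 6 incisor cells and in molar cell 23 alone of 9, and its ratio of 2.20 was 1.09 without incisor cell 28; without molar cell 23 the molar level was 0. Lipa (129.8 and 99.3 CPM) and Npc2 (148 and 85.4 CPM) were within 2-fold; Lipa was 9.93-fold higher in the incisor without molar cell 4 and at 0 there without incisor cell 28, and Npc2 4.05-fold higher in the molar without incisor cell 28. The share of thinned mural-like cells was at least 20 percentage points higher in the incisor for Fabp5, Plin2 and Fabp4 (26.9% of the genes) and in the molar for Lipa and Npc2 (9.93%).

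Incisor cell 13, outside both classes, combined the patterns of both. It had 28129 CPM of Apoe, 2671 CPM of Plin2, 1403 CPM of Cd36 and 476 CPM of Npc2, levels within the range of the macrophages, together with the highest Fabp5 of all 64 cells and 84.2 CPM of Fabp4, which no macrophage had. All 10 mural markers and 9 of 11 macrophage markers were read in it. Rgs5 and Csf1r, read in it by definition, are among these markers. Whether it is 1 cell or more than 1 was not tested. Molar cell 10, with 71.4% of the dental epithelium markers read, had only 2 reads of Apoe and 54.4 CPM of Npc2 among the members.

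Co-detection was taken in the 40 macrophages at equal depth, over the 45 pairs of members. In 17 pairs both genes were read in at least 50% of these cells. The core was Apoe, Abca1, Plin2 and Npc2: Apoe and Abca1 were read together in 37 of 40 cells, Apoe and Plin2 in 35, Abca1 and Plin2 in 34, Apoe and Npc2 as well as Abca1 and Npc2 in 33, and Plin2 and Npc2 in 32. These are the members with the highest shares by themselves (39, 38, 36 and 34 of 40 cells), and their co-detection cannot be told apart from those shares. A macrophage had reads of 2 to 7 members in the molar (median 6) and of 2 to 9 in the incisor (median 7), and a mural-like cell of 1 to 4 in the molar and 1 to 6 in the incisor (median 3 in both).

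Of the pairs with a less frequent member, Fabp5 went with Lipa in the incisor only. Of the 15 thinned macrophages with Fabp5 reads 14 had Lipa reads (93.3%), against 64% of the cells without Fabp5. Before thinning, Lipa was read in all 12 incisor macrophages with Fabp5 reads and in 3 of the 5 molar ones. With or without Fabp5, Lipa was read in 20 of 25 incisor and 15 of 22 molar macrophages. Spearman's rho of the Fabp5 and Lipa levels was 0.38 over 47 macrophages, 0.60 in the incisor and 0.01 in the molar. Lpl and Fabp5 were read together in 7 of 40 cells, which is 53.8% of the Lpl cells and 46.7% of the Fabp5 cells, while 29.6% of the cells without Lpl had Fabp5; 8 of 47 macrophages had both before thinning, 7 of them incisor cells. Their rho was 0.28 over both tissues and 0.22 and 0.14 within molar and incisor. The cells share a tissue and differ in depth, so these values describe the cells and carry no p.

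**Figure D4:**
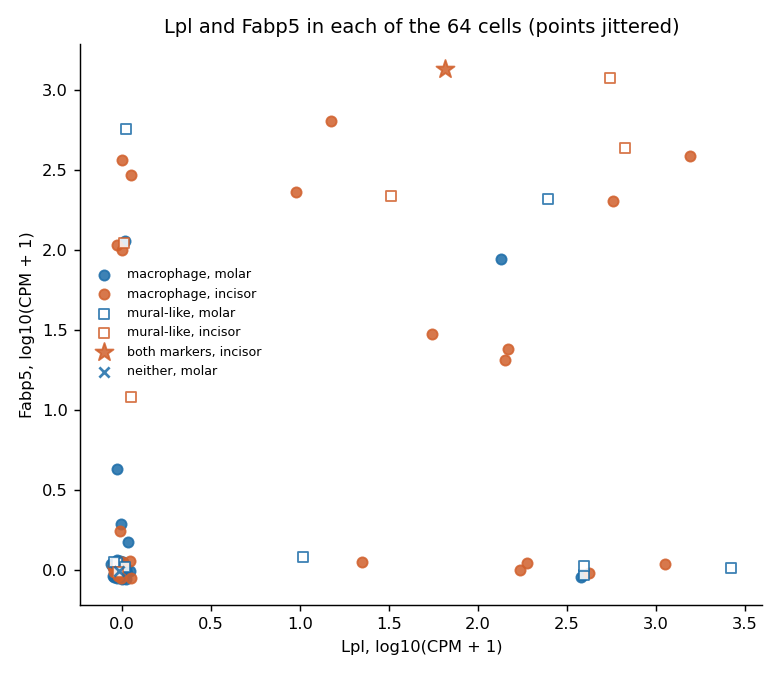
Lpl on the horizontal and Fabp5 on the vertical axis in each of the 64 cells, as log10(CPM + 1), with a small random shift so that points at 0 can be seen; circles are macrophages, squares mural-like cells, the star is incisor cell 13 with both class markers and the cross molar cell 10 with neither. Of the 8 macrophages with reads of both genes, 7 are incisor cells and 1 is a molar cell.

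Among the other members, the level of Apoe ran most closely with those of the exporters and of Npc2. Spearman's rho over 47 macrophages was 0.48 with Abcg1 (0.53 in molar and 0.40 in incisor cells), 0.46 with Npc2 (0.54 and 0.34) and 0.34 with Abca1 (0.24 and 0.33), while with Cd36 it was -0.14. Most of the 1556 genes compared with Apoe had a rho between -0.32 and 0.47. Npc2 and Abca1 lay within that range and Abcg1 just above it. The values of Npc2 and Abca1 with Apoe thus do not stand out from those of other genes. Abca1 and Abcg1 gave 0.31 with each other, and both were read in 25 of 47 macrophages. Depth moved with some of these values: the rho with a cell's total count was 0.60 for Apoe, 0.54 for Npc2 and 0.35 for Plin2, but 0.24 for Abcg1 and 0.08 for Abca1. The part of depth in the correlations of Apoe was not tested.

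**Figure D5:**
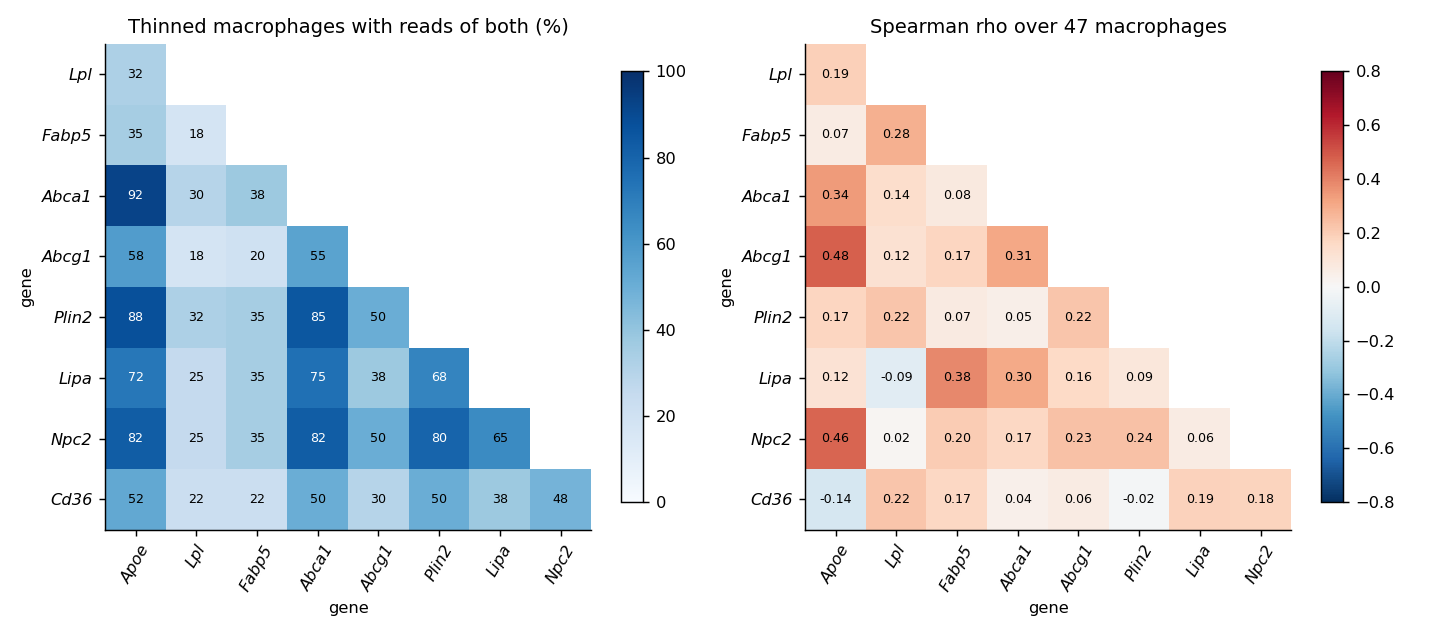
Pairs of the 9 members read in macrophages: on the left the share of the 40 thinned macrophages with reads of both genes, in percent, and on the right Spearman's rho of their levels over 47 macrophages. Apoe, Abca1, Plin2 and Npc2 share most cells, and the highest rho values are those of Apoe with Abcg1 (0.48) and Npc2 (0.46) and of Fabp5 with Lipa (0.38).

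The genes whose levels were most like a member's over the 47 macrophages were taken among genes read in at least 24 of them. They were picked for the highest rho, so lying above the range that holds 95% of the genes is fixed by the choice. For Apoe these were Selenop, a secreted selenium carrier (rho 0.71), Ctss, the lysosomal protease cathepsin S (0.69), and Fam105a (0.67), with 95% of 1556 genes between -0.32 and 0.47. For Lpl they were Atp5b, a subunit of the mitochondrial ATP synthase (0.57), Psmd2, a proteasome subunit (0.46), and Bin2 (0.45), with 95% of 1557 genes between -0.27 and 0.32. For Fabp5 they were again Psmd2 (0.51), Wfdc17 (0.48) and Cycs, the electron carrier cytochrome c (0.46), with 95% between -0.26 and 0.32. Within the tissues the rho of Apoe with Selenop was 0.64 in the molar and 0.75 in the incisor, while that of Lpl with Psmd2 was 0.11 and 0.50 and that of Fabp5 with Wfdc17 was 0.50 and 0.22.

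Other genes of lipid metabolism were taken from 7 lists with 105 genes in the table. In macrophages, 26 of 73 measured list genes were at least 2-fold higher in the incisor and 14 at least 2-fold higher in the molar, with a median log2 ratio of 0.28. These shares are close to the 31.5% and 25.2% of all measured genes. Macrophages against mural-like cells gave 34 of 84 higher and 30 lower, with a median of 0.12, against 35% and 35.7% of all measured genes.

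Lipoprotein receptors and fatty acid genes differed from gene to gene. Of 6 measured genes among apolipoproteins and lipoprotein receptors, 4 were at least 2-fold higher in incisor macrophages and 0 in molar ones. Over all measured genes the shares were 31.5% and 25.2%, and so few list genes give no result about the list. Lrpap1 (331 CPM in the molar and 195 CPM in the incisor) and Scarb1 (86.6 and 78.9 CPM) were not among the 4. Lrp1, a large endocytic receptor that also takes up Apoe, stood at 134 CPM in molar and 304 CPM in incisor macrophages (2.27-fold, and 4.93-fold without molar cell 11). It was read in 20 of 22 and 23 of 25 cells. Of 7 fatty acid genes 3 were higher in the incisor and 2 in the molar, beside the same shares of all genes. Acsl4, which activates polyunsaturated fatty acids, was 2.29-fold higher in the molar (53.1 against 23.2 CPM), a difference that was 1.08-fold without molar cell 25 and 6.02-fold without incisor cell 7. Angptl4, a secreted inhibitor of Lpl, was read in 1 molar and 3 incisor macrophages and was 10.1-fold higher in mural-like cells than in macrophages (349 against 34.6 CPM, with reads in 5 of 15 mural-like cells), 3.49-fold without molar cell 15 and 23.7-fold without incisor cell 6.

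Of 10 droplet and lipase genes 4 were higher in the incisor and 1 in the molar, beside 31.5% and 25.2% of all measured genes. The cholesterol esterifying enzyme Soat1 was close between tissues (149 and 171 CPM), and so was the lipase inhibitor Hilpda (304 and 369 CPM). The lysosomal list was mostly close between tissues, with 2 of 12 higher in the incisor and 1 in the molar, beside the same shares. Scarb2, a lysosomal membrane protein, was 2.15-fold higher in the incisor (102 and 220 CPM). Stard3, which moves cholesterol at late endosomes, was 2.13-fold higher in the molar (139 and 65.3 CPM), and 4.802-fold without incisor cell 4. Psap, the precursor of the saposins, was read in all 47 macrophages, at 563 CPM in the molar and 1017 CPM in the incisor.

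Of 12 measured nuclear receptors and targets 6 were higher in the incisor and 2 in the molar, beside 31.5% and 25.2% of all measured genes. Mylip, a liver X receptor target that degrades lipoprotein receptors, was 2.28-fold higher in incisor macrophages (73.2 and 167 CPM; 5.10-fold without molar cell 3), and the receptor gene Nr1h2 stood at 198 and 332 CPM. The cholesterol synthesis list had the lowest medians. Of 12 measured genes, 7 were at least 2-fold higher in molar macrophages and 4 in incisor ones (median -2.09), against 25.2% and 31.5% of all genes. Between classes 10 of 15 were higher in mural-like cells and 1 in macrophages (median -1.50), against 35.7% and 35%. The genes were few and some were read in few cells, as given below, so these counts give no result about the list. Its 3 genes with the most counts had no common direction between tissues. Srebf2, read in 9 macrophages, stood at 57.2 CPM in the molar and 58.9 CPM in the incisor, but single cells set its order. The incisor was 5.15-fold higher without molar cell 6, and the molar 5.80-fold higher without incisor cell 4. Insig1, which holds back the sterol-sensing factor SREBP, was 2.91-fold higher in molar macrophages (118 and 40.4 CPM), a difference of 1.54-fold without molar cell 26 and 7.85-fold without incisor cell 5. Fdps, an enzyme of isoprenoid synthesis, was read in only 5 macrophages, at 1.81 CPM in the molar and 16.6 CPM in the incisor. It was 31.3-fold higher in mural-like cells (301 against 9.61 CPM), 58.9-fold without incisor cell 25.

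Of 15 genes named for lipid-associated macrophages, 11 were at least 2-fold higher in macrophages than in mural-like cells and 2 lower (median 6.72). The shares of all measured genes were 35% and 35.7%. The list holds Cd68, which is also 1 of the macrophage markers checked above. Cd63 (1054 CPM in macrophages and 1362 CPM in mural-like cells) and Axl (426 and 643 CPM) were lower in macrophages, by less than 2-fold. Between tissues 3 of 14 list genes were higher in the incisor and 1 in the molar (median 0.07), beside 31.5% and 25.2% of all measured genes. Lgals3, the lectin galectin-3, stood at 313 CPM in molar and 870.1 CPM in incisor macrophages (2.78-fold), with reads in 8 of 22 and 18 of 25 cells, and had no read in mural-like cells. Axl, a receptor for dying cells, was 2.12-fold higher in the incisor (268 and 569 CPM; 3.24-fold without molar cell 3). The lysosomal proteases Ctsb (4968 and 6929 CPM) and Ctsd (2222 and 2772 CPM) were close between tissues.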

How the data were processed

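The authors deposited raw read counts, whole numbers for each gene symbol in each cell; per the submitters' processing notes the tools were Trim Galore, HISAT2 (2) and Seurat (3), with the build mm10. How reads were counted, how strand and reads with several matches were handled and whether cells were filtered is not given in the sources used here. There, 64 columns match a labelled cell and 124 match none and were left out. The members and lists were chosen with earlier results of these data known.

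Each group's counts were added up and given as CPM with exact Poisson intervals; ratios have exact conditional binomial intervals and shares exact Clopper-Pearson intervals, all at 95%. They cover counting error of reads or of cells only. PCR copies of a molecule are counted as separate reads here, so intervals of levels and ratios are narrower than the error in molecules. Log2 ratios used a pseudocount of 1 CPM, genes with a mean of 5 CPM or more in the groups compared counted as measured, and a group with 0 reads was set at a limit of 3 counts. Where no cell had a read, a share is given with a limit of 3 cells beside the exact interval. The thinning depth was the 10th percentile of the cells' totals, lowered to the next multiple of 10000. Named beside the members were, per list, up to 3 measured genes with the most counts and those past 2-fold with reads in at least 8 macrophages of each tissue, and the 3 genes most like Apoe, Lpl and Fabp5, predicted genes left out; some of these are given by count alone. Gene positions, transcript lengths and shared stretches are from GENCODE M21 on GRCm38, the assembly of mm10. No doublet caller was run. The ratio code was tested on simulated data. Alternatives changed the weighting of cells, the scaling, the pseudocount, the class thresholds, the filter and the cells used. Python 3.11.15, NumPy 2.4.6, pandas 2.3.3, SciPy 1.17.1 and Matplotlib 3.10.9 were used.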

Additional observations from a re-analysis of the deposited data

Results flagged for a closer look

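In 4 of the 7 groups of mural-like cells with at least 3 cells read, 1 cell stood far from the others, its gap to the next being more than the usual limit for a single outlying value. That limit is made for values without the many zeros seen here. No rate expected by chance is therefore given, and the flags only describe the cells. Molar cell 4 had 2579 CPM of Lpl and 1514 CPM of Lipa, each the highest of 9 molar cells. Molar cell 22 had 549.9 CPM of Fabp5, also the highest of 9. Incisor cell 28 had 773 CPM of Plin2, the highest of 6 incisor cells.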

How the results depend on the processing

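No paired analysis was possible because the cell numbers in the labels only name cells, the labels name no animals, and no result comes from a test. Among the ratios of single members, 155 values under alternatives other than leaving out 1 cell stayed within the counting interval and 158 moved, none of these reversing a difference of at least 2-fold. With the mean of the per-cell CPM, 2 members were at least 2-fold higher in molar mural-like cells in place of 1. Co-detection in at least 50% of macrophages fell from 17 pairs to 11 with at least 5 reads asked for, and was 27 in incisor macrophages alone, an alternative chosen after seeing the data. With list genes asked to reach 20 CPM, 9 and not 14 were higher in molar macrophages.

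Leaving out each cell in turn gave 6 to 7 members higher in macrophages and 2 to 3 in mural-like cells. Within each tissue, an alternative chosen after seeing the data, it gave 6 to 7 and 1 to 2. It gave 2 to 4 higher in the incisor over all cells and 2 to 4 within macrophages, with 0 to 0 higher in the molar in both. In mural-like cells it gave 3 to 6 higher in the incisor and 0 to 3 in the molar. There the log2 ratio of Apoe ran from -0.0596 (without incisor cell 32) to 6.48 and that of Abca1 from -5.38 to 0.42 (without molar cell 17), reversing both. The list counts in macrophages ran from 24 to 28 and from 12 to 17, and between classes from 33 to 37 and from 26 to 31, alternatives chosen after seeing the data. The cause of these changes was not tested beyond the fewer cells used. Depth limits what a count of 0 can show: with 1040000 reads a gene of a few CPM can be missed in a cell.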
